A study of Mus musculus with 7 samples.

Results

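Endothelial cells and nuclei of the mouse hippocampus were taken as barcodes whose transcripts of 7 endothelial genes made up at least 0.8% of all their transcripts. The 7 genes were Flt1, Mecom, Adgrl4, Ptprb, Abcb1a, Egfl7 and Cldn5, and at least 3 of them had to be detected. Barcodes had to hold more than 300 and fewer than 50000 transcripts and more than 300 genes, and at most 1 transcript of the 3 pericyte genes Atp13a5, Notch3 and Abcc9. The rule found 1074 members among 57990 barcodes of this depth. Of these, 804 were nuclei, which is 1.49% of 54099, and 270 were single cells, which is 6.94% of 3891. Nuclei and single cells are described apart throughout, and the nuclei carry most of the results.

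Endothelial cells line the blood vessels of the brain and form the blood-brain barrier with pericytes and astrocyte endfeet. They seal the vessel wall with tight junctions, let little cross by vesicles, and feed the brain through nutrient carriers while efflux pumps return lipophilic compounds to the blood. Wnt/β-catenin signaling from neural cells maintains this state, and the cells differ in gene expression along the vessel from arteries through capillaries to veins.

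PMX205, an antagonist of the complement receptor C5aR1, was given to Arctic48 mice, a model of amyloid pathology, and to wild-type mice, in drinking water at 20 µg/ml for 12 weeks up to an age of 10 months. The 4 groups were Arctic48 mice with PMX205 (Arc-PMX) or plain drinking water (Arc-veh) and wild-type mice with PMX205 (WT-PMX) or plain drinking water (WT-veh). Each group had 6 wells of single cells and 6 wells of nuclei, 3 female (F1 to F3) and 3 male (M1 to M3). Arctic48 mice were hemizygous for a human APP transgene with the Indiana, Swedish and Arctic mutations on C57BL6/J, the WT mice lacked it, and all mice were housed singly. A nuclei well held a portion of the hippocampus of 1 mouse. A single-cell well pooled several mice, and its cells were dissociated with transcription and translation inhibitors and selected with CD11b beads, a selection for microglia, so the endothelial single cells are those the selection let through. RNA was barcoded by split-pool ligation (Parse), and transcripts were counted in 7 sublibraries that each held all 48 wells. A sample labelled WT was left out of the study because its gene expression was that of Arctic mice. The sources used here do not name it, so all wells were kept by their labels, and a well labelled WT may hold Arctic tissue, which bears on every WT value below.

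Members per well ranged from 4 to 81 in nuclei and from 0 to 70 in single cells. At least 10 members, the minimum for tests over summed counts, were present in 23 nuclei wells and 8 single-cell wells, and the nuclei well left out was WT-veh F3 with 4 members. Those wells held 18126 to 117792 endothelial transcripts in nuclei and 11359 to 72609 in single cells. The median endothelial nucleus had 978 transcripts and 667 genes, against 3328 transcripts in the other nuclei. The median endothelial single cell had 644 transcripts and 459.5 genes. Only 2 member barcodes occurred in more than 1 sublibrary, against 6780 of all barcodes, and Scrublet scored 5 endothelial nuclei and 0 single cells above 0.25.

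The members were chosen by measured transcripts of the rule genes, so the values of these genes are a description. Flt1, the decoy receptor for VEGF, was found in 97.6% of endothelial nuclei and 2.95% of other nuclei. The transcription factor Mecom was found in 91.3%, the receptor phosphatase Ptprb in 88.2%, the adhesion receptor Adgrl4 in 81.8%, the efflux pump Abcb1a in 72.5%, Egfl7 in 51.6% and the tight junction protein Cldn5 in 34.8%. The 7 genes together made up a median of 1.88% of a nucleus's transcripts, from 0.803% to 5.04%, and 1.42% in single cells. No gap marks the threshold: 21 nuclei lay between 0.8% and 0.9%, and 18 barcodes that met every other condition lay between 0.7% and 0.8%, with values of 0.803% just inside and 0.796% just outside. The limit on pericyte transcripts removed 245 further nuclei, which had a median of 4879 transcripts and 11 pericyte transcripts. A stricter threshold of 1.2% kept 711 nuclei and 185 single cells.

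Endothelial genes that the rule did not use had their place in the members as well. A list of 20 other endothelial genes made up 1.29% of the transcripts of endothelial nuclei and 0.00998% of those of other nuclei. Pecam1, the platelet adhesion molecule of endothelial junctions, was at 1039 ± 234 counts per 1000000 transcripts (CPM, mean ± SD over 23 wells) and at 7.70 in the other nuclei of the same wells. The angiopoietin receptor Tek was at 930 ± 174 against 6.91 CPM and VE-cadherin (Cdh5) at 371 ± 114 against 2.72 CPM. The transcription factor Erg was at 543 ± 137 against 4.38 CPM and nitric oxide synthase Nos3 at 449 ± 125 against 2.65 CPM. These genes are carried by the same nuclei the rule picked, so the values describe the members and carry no test. As a description, the label of endothelial holds for the nuclei by genes outside the rule. In single cells the separation was smaller. There the 20 genes took 0.861% of transcripts of endothelial cells and 0.0664% of those of other cells. The rule gene Flt1 was found in 98.1% of endothelial and 21.8% of other single cells.

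Markers of other cell types were low in endothelial nuclei but not absent. The 9 neuron markers took 0.119% of endothelial transcripts, against 1.98% in other nuclei, and 71.0% of endothelial nuclei had at least 1 such transcript. The 8 astrocyte markers took 0.109%, against 0.210%. The 11 mural markers took 0.110%, more than the 0.00762% in other nuclei, and were carried mainly by Rgs5. Of the smooth muscle genes Acta2 and Tagln were at 0. Myh11 had 34 transcripts in endothelial nuclei with at least 1% mitochondrial transcripts and 2 in the rest of them. The 11 microglial markers took 0.0249%, more than the 0.0146% in other nuclei, and were present in 25.1% of endothelial nuclei. Among single cells the microglial share was higher, with 0.279% of transcripts and 68.9% of the members holding at least 1. In all other single cells it was 0.752%. Transcripts of 7 genes that tend to collect ribosomal RNA reads took 10.8% of transcripts in endothelial nuclei, from 4.33% to 28.4% between wells, and 0.960% in other nuclei.

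The members were next compared with all other nuclei of the same wells, gene by gene. Because the rule itself separates endothelial nuclei from the rest, the counts are a description from which nothing is read. A gene was tested if enough wells of either class held it, so genes scarce in other nuclei could enter only through the endothelial class. Counts of list genes that were higher are therefore partly set by this filter. edgeR's quasi-likelihood test with well as a block called 71.9% of 11264 genes at an adjusted p under 0.05, with 16.1% higher and 55.9% lower in endothelial nuclei. The median log2 fold change over all genes was −0.75. With DESeq2's size factors 1583 genes were higher and 7002 lower, with a median of −0.92. Simulated data for this contrast had 200 of 10862 genes changed, raised and lowered in equal number. There the first scaling called many unchanged genes and the second few. In the data most genes were called and more were lower, so the simulation cannot tell which scaling is right here. The lists below had the same counts of calls under both scalings.

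All 19 tested genes of barrier transport were higher in endothelial nuclei. Slco1a4, a carrier of organic anions, was at 4484 ± 660 CPM against 28.3 in the other nuclei. Slco1c1, a carrier of thyroid hormone, was at 1842 ± 450 against 31.1 CPM. The glucose carrier Slc2a1 was at 891 ± 338 against 12.9 CPM and the large amino acid carrier Slc7a5 at 643 ± 267 against 10.7 CPM. The efflux pumps Abcc4 and Abcg2 were at 1347 ± 320 against 50.1 CPM and 836 ± 264 against 15.2 CPM. Mfsd2a, the lipid carrier known to hold down vesicle transport, was at 158 ± 86.3 against 3.38 CPM. Iron handling was represented by the transferrin receptor Tfrc, at 494 ± 165 against 29.9 CPM, and the iron exporter Slc40a1, at 238 ± 77.9 against 2.38 CPM.

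Of 14 tested junction genes, 13 were higher and 1, Magi1, was not called. The scaffold Tjp1 was at 2281 ± 513 against 499.6 CPM, and the junction protein Ocln at 310 ± 136 against 12.2 CPM. Cgnl1, which couples junctions to the cytoskeleton, was at 781 against 12.7 CPM, while its relative Cgn had 0 transcripts in the members.

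The Wnt pathway was present at the level of receptors, nuclear effectors and targets, with 15 of 16 tested genes higher. Lef1, the transcription factor that acts with β-catenin, was at 1966 ± 284 against 18.5 CPM. The receptor Fzd6 was at 364 against 5.58 CPM, the feedback inhibitor Apcdd1 at 487 against 13.1 CPM and the target Axin2 at 115 against 22.1 CPM. The co-receptor Lrp6 was not called, at 162 against 97.0 CPM. Among VEGF, angiopoietin and Notch genes 12 of 15 tested were higher and 3 lower. The VEGF receptors Kdr and Flt4 were at 413 ± 139 against 3.97 CPM and 156 against 1.05 CPM. The ligand Dll4 was at 61.8 against 0.926 CPM and Notch4 at 195 against 2.06 CPM. Pdgfb, the growth factor by which endothelium recruits pericytes, was at 379 against 13.9 CPM. The ligand Vegfa was lower, at 5.49 against 23.6 CPM. Of genes known from tip cells, Apln, Esm1 and Pgf had 0 transcripts. Angpt2 had 51 in endothelial nuclei with at least 1% mitochondrial transcripts and 7 in the rest of them.

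Among TGF-β and BMP genes 12 of 17 tested were higher and 2 lower. The endothelial receptor Acvrl1 was at 290 ± 79.0 against 1.82 CPM, its partner Eng at 784 ± 169 against 6.36 CPM and the inhibitory Smad6 at 136 against 3.92 CPM, while the receptor Bmpr1a was lower, at 16.9 against 81.7 CPM. Of 18 basement membrane genes 15 were higher and 1 was lower. The perlecan gene Hspg2 was at 340 against 6.32 CPM, laminin Lama4 at 389 against 11.7 CPM and the integrin Itga1 at 661 against 12.8 CPM, while laminin Lamb1 was lower, at 4.70 against 41.5 CPM.

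Of 16 genes of interferon response and antigen presentation only 6 were tested. All 6 were higher, among them B2m at 161 against 4.37 CPM and the class I gene H2-K1 at 78.1 against 2.30 CPM. The class II genes Cd74, H2-Aa and H2-Ab1 had 0 transcripts in endothelial nuclei. Of 16 genes of adhesion and inflammation only 5 were tested, and all 5 were higher. The chemokine Cxcl12 was at 835 ± 256 against 7.43 CPM and the IL-1 receptor Il1r1 at 326 ± 237 against 25.6 CPM. Among genes that activated endothelium is known to raise, Vcam1 had 100 transcripts over all endothelial nuclei and Icam1 30, while Sele had 4, Selp 1, Lcn2 2 and Ccl2 0.

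A list of 14 early response and dissociation genes took 0.0612% of the transcripts of endothelial nuclei, against 0.00475% in other nuclei, and 0.0567% in endothelial single cells. It was led in nuclei by the flow-responsive transcription factors Klf2, at 145 ± 86.5 CPM, and Klf4, at 112 ± 58.3 CPM. Fos had 36 transcripts over all endothelial nuclei and 4 over all endothelial single cells, and the heat shock gene Hspa1a had 0 in both. Klf2 was at 86.2 ± 50.8 CPM and Klf4 at 134 ± 106 CPM in single cells.

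Of 15 tested genes that handle amyloid 8 were higher and 7 lower, where 16.1% of all tested genes were higher and 55.9% lower. App was at 2022 ± 593 against 619 CPM, Adam10, the α-secretase, at 279 against 86.5 CPM, and the endocytic adaptor Picalm at 402 against 131 CPM. Ece1, a peptidase able to cut amyloid-β, was at 320 against 48.4 CPM. The β-secretase Bace1 was lower, at 21.6 against 36.2 CPM, as were the receptors Lrp1, at 47.6 against 203 CPM, and Sorl1, at 19.8 against 261 CPM. The receptors Ager and Lrp2 and the peptidase Mme had 0 transcripts in endothelial nuclei. Among the genes lowest relative to other nuclei were neuronal ones, such as Grin1 at 15.5 against 365 CPM and Nrg1 at 53.5 against 1149 CPM.

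Mural nuclei, the pericytes and smooth muscle cells of the same vessels, were the other class of the vessel wall compared. They were taken by 7 pericyte genes, and 22 wells had at least 5 of them. Of 400 mural nuclei, 51 also met the endothelial share and were kept from the members by their pericyte transcripts alone. Here too the rules set the contrast. edgeR called 75.0% of 511 genes, 39.5% higher and 35.4% lower in endothelial nuclei. DESeq2's size factors moved the median log2 fold change from −0.01 to 0.44 and the split from 202 higher and 181 lower to 290 and 120. Barrier transport stayed on the endothelial side, with 13 of 14 tested genes higher and 14 of 14 with the other scaling. Slco1a4 was at 4523 CPM in endothelial and 1266 CPM in mural nuclei, and Abcc4 at 1383 and 318 CPM. In the 349 mural nuclei with an endothelial share under 0.8%, a class set after seeing the data, Slco1a4 was at 67.7 CPM and Abcc4 at 35.2 CPM, and 11 of 12 tested transport genes were higher in the endothelium. This class leaves out mural nuclei with many endothelial transcripts, which can lower such genes by itself, so nothing is read from this count. The basement membrane list divided, with 2 of 9 genes higher and 3 lower, and 4 and 2 with the other scaling. Laminin Lamc1 was at 148 CPM in endothelial and 1006 CPM in mural nuclei and Itga1 at 676 and 1497 CPM. The lowest genes were pericyte ones, with the amino acid carrier Slc6a20a at 6.97 against 1529 CPM and the chloride channel Ano1 at 8.16 against 1369 CPM.

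The endothelial nuclei varied among themselves along the axis from artery to vein. Against other nuclei, 6 of 6 tested arterial genes, 10 of 10 capillary and 4 of 5 venous genes were higher, which repeats what the members were chosen for. The lists held 12 arterial, 10 capillary and 10 venous genes. To describe the axis within the endothelium, nuclei with at least 1 transcript of Bmx, a kinase of arterial endothelium, or of Il1r1, which is enriched in veins, were set beside those without. Both genes were chosen after their values were seen, and intervals are exact Poisson 95% intervals that cover counting error only. Bmx was detected in 90 nuclei, with a median of 1066 transcripts against 972.5 in the rest, and Il1r1 in 159, with a median of 978 in either class. Only 6 nuclei had both.

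In nuclei with Bmx the lymphangiogenic factor Vegfc was at 440 CPM (352 to 543), against 99.4 (81.6 to 120) without it. The arterial semaphorin Sema3g was at 184 (129 to 255) against 38.3 CPM (27.6 to 51.8), the elastic fiber protein Fbln5 at 143 (95.2 to 207) against 16.4 CPM (9.73 to 25.9), and the Notch ligand Jag1 at 276 against 111 CPM. Il1r1 was lower, at 76.7 (42.9 to 127) against 354 CPM (320 to 391). The arterial ligand Efnb2 had overlapping intervals, at 97.2 (58.5 to 152) and 71.2 CPM (56.2 to 88.8).

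In nuclei with Il1r1 von Willebrand factor (Vwf) was at 1357 CPM (1227 to 1496), against 370 (333 to 410) without it. The venous transcription factor Nr2f2 was at 64.0 (38.5 to 99.9) against 11.1 CPM (5.52 to 19.8) and the glutamine carrier Slc38a5 at 70.7 (43.8 to 108) against 15.1 CPM. The arterial genes Bmx and Efnb2 were lower, at 30.3 against 144 CPM and 16.8 against 92.5 CPM. The arterial ligand Jag1 had overlapping intervals, at 128 and 139 CPM. Capillary genes went both ways. Mfsd2a was at 70.7 against 179 CPM, and Tfrc, Rgcc, Spock2, Ivns1abp, Slc7a5 and Cxcl12 were lower as well. Slc16a1, at 293 against 246 CPM, Slc22a8, at 417 against 356, and Itih5, at 603 against 517, were higher, with overlapping intervals. Vcam1, an adhesion molecule for leukocytes, was higher with either marker, at 184 against 58.4 CPM by Bmx and at 141 against 58.3 CPM by Il1r1. Single cells gave Vwf at 926 CPM (633 to 1307) in 35 cells with Il1r1 and 326 (251 to 418) without it.

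**Figure D1:**
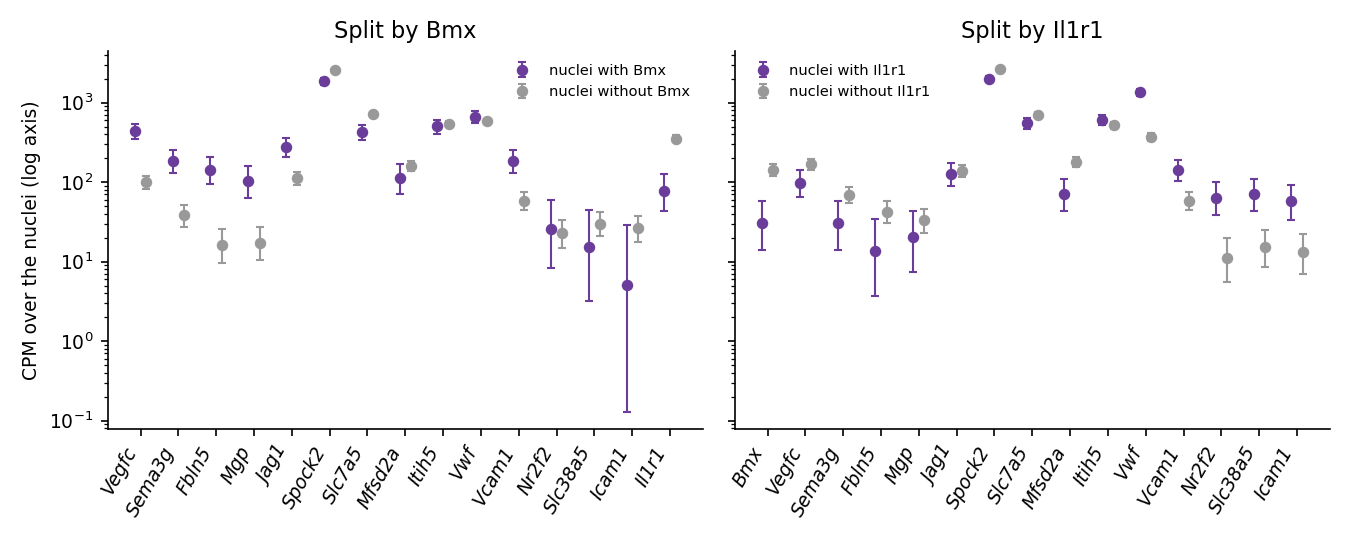
Level in CPM, on a log axis, of zone genes in endothelial nuclei with and without a transcript of Bmx (90 nuclei with) and with and without Il1r1 (159 nuclei with). Bars are exact Poisson 95% intervals. Vegfc, Sema3g and Fbln5 lie higher with Bmx, and Vwf, Nr2f2 and Slc38a5 lie higher with Il1r1.

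Many of the same genes differed with the fraction of mitochondrial transcripts. The study's own filter for nuclei kept those under 1%, and 435 endothelial nuclei lay under 1% while 369 lay at or above it. Nuclei at or above 1% had more transcripts, with a median of 1648 against 724. The capillary list took 0.705% of their transcripts and 0.359% under 1%. Spock2, a proteoglycan of that list, was at 3023 CPM against 1255, higher in 22 of 23 wells, and Cxcl12 was at 1058 against 279 CPM, higher in 23 of 23. The arterial list took 0.0397% at or above 1% and 0.146% under it and the venous list 0.0710% and 0.221%, although nearly the same share of nuclei held a transcript of them, 42.0% and 40.9% for the arterial and 51.8% and 52.6% for the venous list. Vegfc was at 47.9 CPM in nuclei at or above 1% and 385 under it, Bmx at 41.2 and 292 CPM, and each was higher in 1 of 23 wells. The arterial receptor Unc5b, at 72.4 and 73.5 CPM, and the venous receptor Ephb4, at 105 and 101 CPM, had overlapping intervals. Il1r1 was at 120 against 748 CPM and Vcam1 at 21.2 against 205 CPM, each higher in 2 of 23 wells. Endothelial genes without a zone went different ways. Flt1 was at 7181 CPM at or above 1% and 7060 under it, Slco1a4 at 4487 and 4431 and Pecam1 at 1045 and 1014. The rule gene Cldn5 was at 565 and 236 CPM, higher in 20 of 23 wells, and Mecom at 2817 and 4355, higher in 1 of 23. Ly6c1, a surface antigen of endothelium, was at 238 and 58.3 CPM, higher in 23 of 23.

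Other transcripts moved with the same split. At least 1 mural transcript was found in 79.9% of nuclei at or above 1% and 4.83% of those under it, and Rgs5 was at 1355 and 48.2 CPM. Astrocyte transcripts were in 54.2% and 20.9% of nuclei. The transcripts linked to ribosomal RNA took 14.6% and 2.17%. At least 1 neuron marker transcript was in 79.7% and 63.7% of nuclei. By share of transcripts the neuron markers went the other way, with 0.0884% and 0.190%, against 0.154% and 0.00811% for mural and 0.121% and 0.0809% for astrocyte markers. The part of these transcripts and of depth in the difference between the classes was not tested. Of nuclei with Bmx 71.1% lay under 1%, and of those with Il1r1 69.2%. In single cells split at their median of 1.81% Cxcl12 was at 486 CPM (371 to 625.3) at or above it and 240 (156 to 355) under it, the order seen in nuclei. The intervals overlapped for Bmx, at 170 (105 to 260) and 86.5 CPM (39.6 to 164), for Il1r1, at 308 (218 to 422) and 394 CPM (283 to 535), and for Spock2, at 2024 and 2153 CPM.

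**Figure D2:**
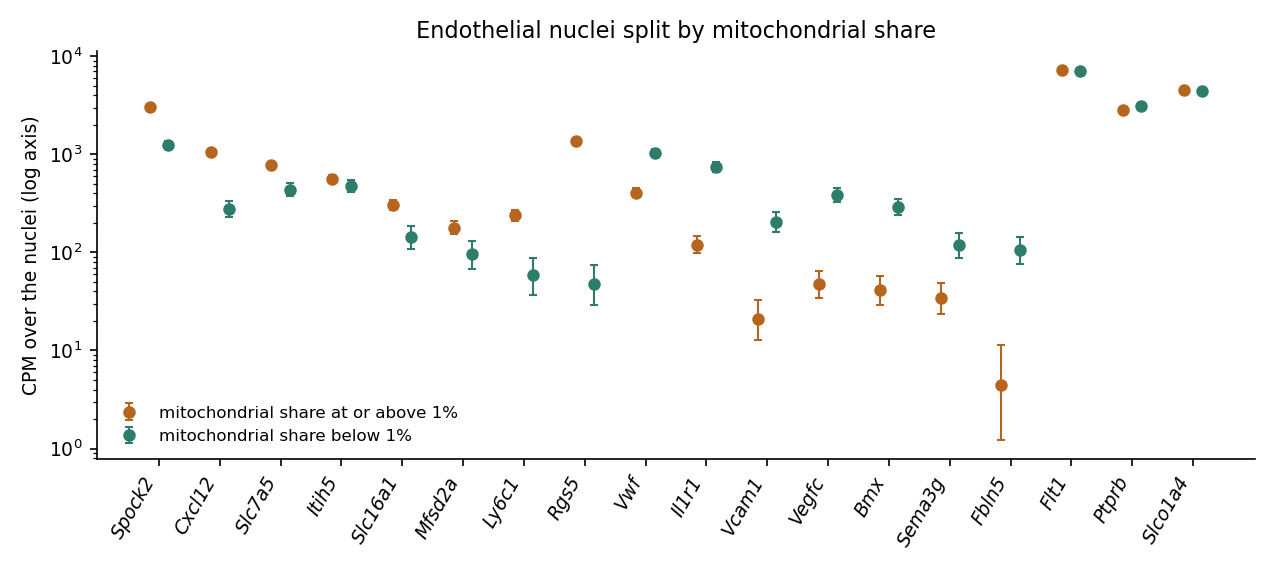
Level in CPM, on a log axis, in 369 endothelial nuclei with at least 1% mitochondrial transcripts and 435 with less, with exact Poisson 95% intervals. Spock2 and Cxcl12 lie higher at or above 1%, Bmx, Vegfc and Il1r1 lie lower, and Flt1 lies at the same level in both.

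Whether the number of endothelial nuclei followed genotype or treatment was asked with each well's share of endothelial among all nuclei. The share in WT-veh wells ranged from 0.272% to 2.52% with a median of 0.948%, and its mean was 1.19 ± 0.793% (SD, n = 6). In WT-PMX it ranged from 0.871% to 1.73%, with a median of 1.34% and a mean of 1.34 ± 0.318%. In Arc-veh it ranged from 1.24% to 2.31%, with a median of 1.85% and a mean of 1.84 ± 0.370%. In Arc-PMX it ranged from 1.13% to 2.13%, with a median of 1.52% and a mean of 1.60 ± 0.407%. All 4 groups overlapped. Arc-veh lay 0.656 percentage points above WT-veh, which an exact two-sided permutation test over wells did not separate (p = 0.0974, adjusted over 4 comparisons 0.195).

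Arc-PMX lay 0.244 points below Arc-veh (exact permutation p = 0.301, adjusted 0.401). All Arc wells together had a mean of 1.72% and all WT wells 1.26%, with a permutation p of 0.0355 that did not pass adjustment (0.142). Leaving out WT-veh M1, the WT well with the highest share, brought this difference to 0.571 points (permutation test, adjusted p = 0.0156). That of Arc-veh and WT-veh became 0.922 points (exact permutation, adjusted p = 0.0173). With any 1 of the other 23 wells left out neither comparison passed, with adjusted permutation p up to 0.268 and 0.390. With the study's filters on nuclei the difference between all Arc and all WT wells was 0.106 points (permutation p = 0.557) and that of Arc-veh and WT-veh 0.238 points (exact permutation p = 0.403). Over nuclei without neuron markers the shares were 3.43 ± 2.11% in WT-veh, 4.35 ± 1.05% in WT-PMX, 4.62 ± 0.705% in Arc-veh and 4.33 ± 0.969% in Arc-PMX, and none of the 4 comparisons passed. Single-cell shares rested on 5 and 4 WT wells, with water and with PMX205, and on 5 and 6 Arc wells, and were in this order 5.18 ± 4.26%, 8.99 ± 5.45%, 4.10 ± 3.03% and 5.75 ± 4.61%. None of the 4 comparisons passed. The CD11b selection makes these shares depend on the number of microglia. Over barcodes without microglial transcripts Arc-veh was at 26.1% and WT-veh at 10.4%, the reverse order (exact permutation p = 0.0317, adjusted 0.127). These shares rested on 4 Arc-veh wells with 4 to 46 such barcodes and 5 WT-veh wells with 10 to 39.

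**Figure D3:**
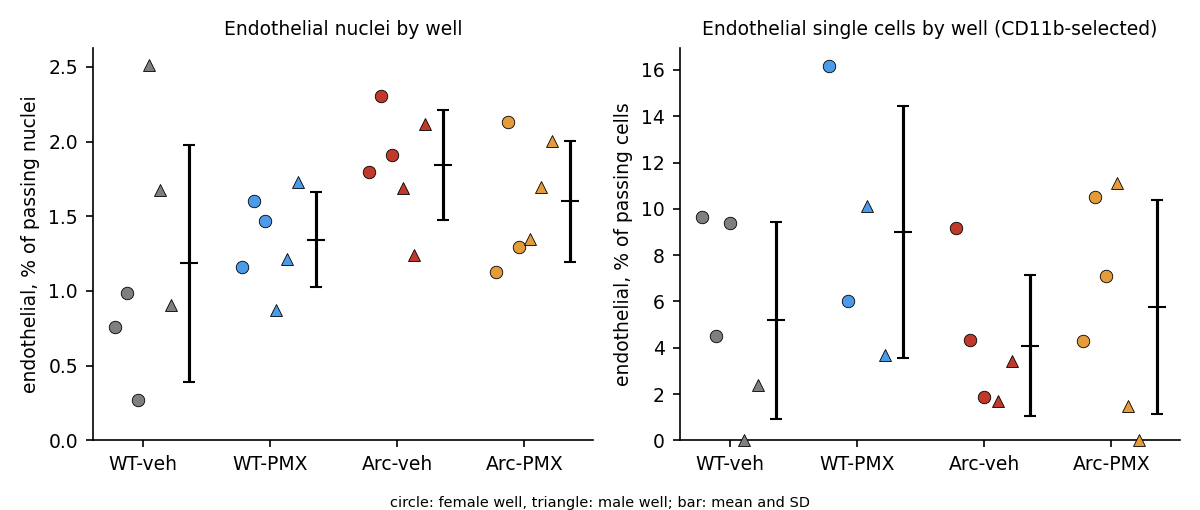
Endothelial nuclei as percent of all nuclei and endothelial single cells as percent of all single cells (y axes) in each well, by group. Circles are female and triangles male wells, and bars give the mean and SD. The nuclei of all 4 groups overlap, with means from 1.19% in WT-veh to 1.84% in Arc-veh.

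Gene expression was compared between the groups on counts summed per well, in 1 edgeR fit over 23 nuclei wells with sex as a covariate. Between Arc-veh and WT-veh 3 of 1256 genes passed an adjusted p under 0.05, 0.239% of those tested. They were App and AY036118, which were higher in Arc-veh (0.159% of those tested), and Plcl1, which was lower. Averaged over treatment, 1 gene, App, differed between Arc and WT, 0.0796% of those tested.

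App encodes the amyloid precursor protein, the gene that the Arctic48 transgene adds in human form. App was at 1345, 1721, 1443, 1654 and 1710 CPM in WT-veh F1, F2, M1, M2 and M3. In WT-PMX it ranged from 1311 to 1829 CPM with a median of 1600, and the 2 WT groups lay on top of each other. In Arc-veh it ranged from 1693 to 3284 with a median of 2679, and in Arc-PMX from 1724 to 2684 with a median of 2465. The lowest Arc-veh and Arc-PMX wells reached into the WT range and the others lay above it. The log2 fold change was 0.78 (SE 0.17, edgeR adjusted p = 0.0317) between Arc-veh and WT-veh and 0.68 (SE 0.11, edgeR adjusted p = 0.00173) averaged over treatment. The adjusted p of Arc-veh against WT-veh rose above 0.05 when any 1 of 8 wells was left out, namely F2, F3, M1 or M2 of Arc-veh or F1, F2, M1 or M2 of WT-veh, with fold changes from 0.71 to 0.86. Reads of the human transgene and of mouse App cannot be told apart in these counts.

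App was then taken apart by mitochondrial fraction, a division added after seeing the data. In endothelial nuclei at or above 1% it was at 1468 ± 211 CPM in WT-veh, 1598 ± 207 in WT-PMX, 2714 ± 766 in Arc-veh and 2492 ± 313 in Arc-PMX, and Arc lay above WT by 0.81 on the log2 scale averaged over treatment (edgeR adjusted p = 0.000955). Under 1% it was at 1914 ± 418, 1425 ± 441, 1979 ± 442 and 1774 ± 523 CPM, with a log2 fold change of 0.20 that did not pass (edgeR adjusted p = 0.9996), in a fit over 321 genes. The difference between the classes was not tested. In all other nuclei App ranged from 453 to 549 CPM over the WT-veh wells, 519.5 to 587 over WT-PMX, 609 to 906 over Arc-veh and 577 to 767 over Arc-PMX. The means of all other nuclei were 502, 546, 709 and 690 CPM, and mural nuclei were at 817, 663, 1042 and 1200 CPM, in the same order of groups. Microglial nuclei went another way, at 650 ± 188, 693 ± 206, 494 ± 209 and 669 ± 272 CPM, and nuclei of the astrocyte class were at 163 ± 45.5, 143 ± 34.0, 211 ± 73.0 and 206 ± 43.6 CPM.

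**Figure D4:**
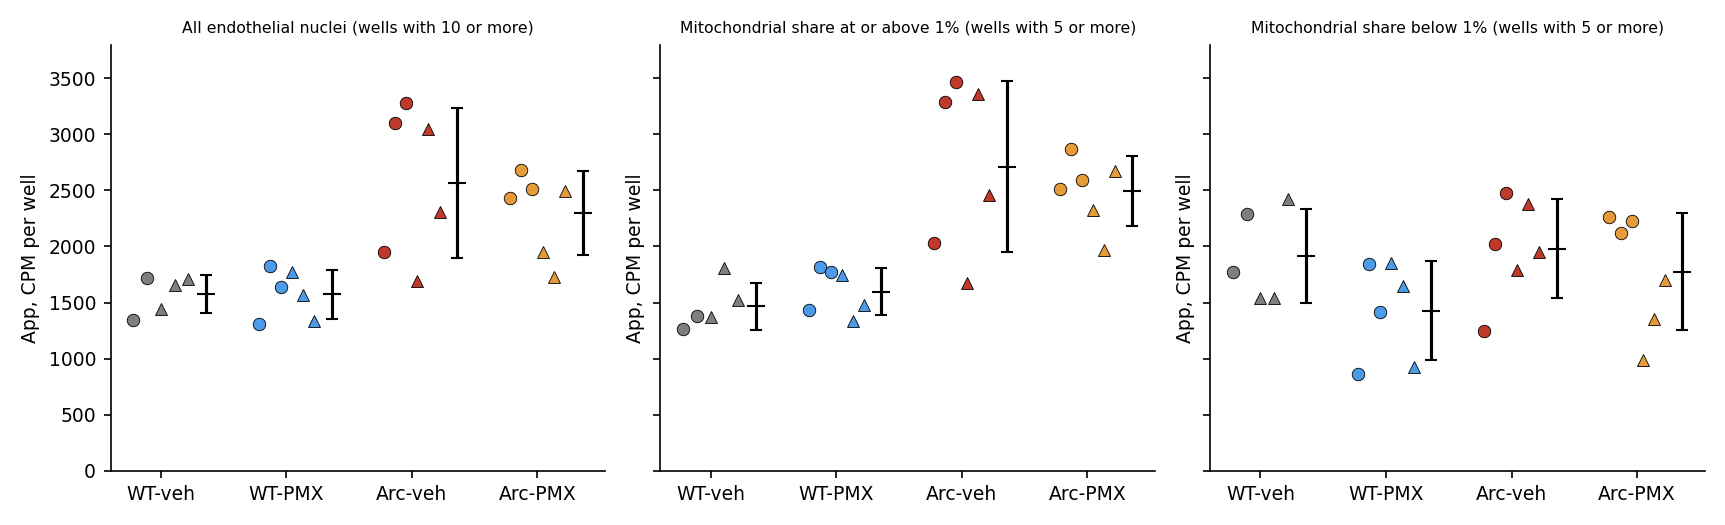
App in CPM (y axis) in endothelial nuclei of each well by group, for all nuclei, those with at least 1% and those with less than 1% mitochondrial transcripts. Points are wells (circles female, triangles male), with at least 10 nuclei in the first panel and 5 in the others, and bars give the mean and SD. Over all nuclei the WT wells lie between 1311 and 1829 CPM and the Arc wells between 1693 and 3284 CPM, and under 1% the groups overlap.

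The other 2 genes rested on few wells or few transcripts. AY036118, a locus known to collect ribosomal RNA reads, was at 142315 CPM in Arc-veh M1 and 46842 in Arc-veh F3, against 2082 to 10367 in all other wells of the 4 groups. Its log2 fold change of 3.55 (SE 0.77, edgeR adjusted p = 0.0317) became 0.71 (adjusted p = 0.643) without those 2 wells, and no gene was then called. Plcl1, a phospholipase-like protein without enzyme activity, was at 42, 269, 280, 414 and 828 CPM in the WT-veh wells and from 13 to 124 CPM in Arc-veh, with a log2 fold change of −2.74 (SE 0.60, edgeR adjusted p = 0.0317). The 2 groups overlapped, and a well held 1 to 33 of its transcripts. The call of Plcl1 was lost, with adjusted p up to 0.144, when any 1 of 8 wells was left out, namely F2, F3, M1 or M2 of Arc-veh or F2, M1, M2 or M3 of WT-veh. That of AY036118 was lost without F3 or M1 of Arc-veh or any 1 of the WT-veh wells, with adjusted p up to 0.308.

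No gene passed the threshold for PMX205 in endothelial nuclei. Between Arc-PMX and Arc-veh, 0 of 1256 genes passed in edgeR and in DESeq2, and 51 had an unadjusted p under 0.05. Between WT-PMX and WT-veh 0 passed and 50 had an unadjusted p under 0.05. The counts were 0 and 52 averaged over genotype, and 0 and 45 for the difference of the PMX205 effects between genotypes. The smallest p belonged in Arc mice to AY036118, with a log2 fold change of −3.02, the ubiquitin ligase March3 with 0.99, and the adaptor Gab2 with −0.68, and in WT mice to Fer with 1.24, Clk1 with 0.74 and Ralgapa1 with 0.48.

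Endothelial gene lists were described by their genes. Of 16 tested barrier transport genes 0 passed between Arc and WT averaged over treatment. Their median log2 fold change was 0.21 against 0.01 over all genes, and 14 were positive, against 635 of 1256 over all genes. Slco1a4 was at 4112 ± 522 CPM in WT-veh, 4433 ± 515 in WT-PMX, 4411 ± 561 in Arc-veh and 4919 ± 861 in Arc-PMX. Slc2a1 was at 735 ± 135, 1044 ± 488, 768 ± 263 and 991 ± 315 CPM in the same order. Of 7 tested capillary genes 0 passed, 6 were positive and the median was 0.36. The 1 tested arterial gene, at −0.76, and the 2 venous genes, with a median of −0.46, went the other way, and 0 of them passed. Spock2 was at 2136 ± 391.6, 2237 ± 624, 2961 ± 953 and 2455 ± 580 CPM.

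Il1r1 was at 569 ± 391 CPM in WT-veh, 341 ± 132 in WT-PMX, 216 ± 100 in Arc-veh and 218 ± 98.4 in Arc-PMX, with a log2 fold change of −0.85 (SE 0.25, edgeR adjusted p = 0.190) averaged over treatment. The composition by mitochondrial fraction moved with these values. At or above 1% lay 39.8 ± 17.6% of endothelial nuclei in WT-veh, 42.2 ± 16.3% in WT-PMX, 56.4 ± 6.54% in Arc-veh and 53.8 ± 12.3% in Arc-PMX, and its part in them was not tested. Astrocyte markers took 0.166 ± 0.146% of transcripts in WT-veh wells, 0.132 ± 0.127% in WT-PMX, 0.0582 ± 0.0334% in Arc-veh and 0.113 ± 0.0752% in Arc-PMX, and mural markers 0.0904 ± 0.0296%, 0.113 ± 0.0373%, 0.112 ± 0.0239% and 0.113 ± 0.0398%. Oligodendrocyte markers took 0.0712 ± 0.0650%, 0.0414 ± 0.0491%, 0.0213 ± 0.0235% and 0.0204 ± 0.0176% in the same order, and the transcripts linked to ribosomal RNA 9.78 ± 4.60%, 8.37 ± 4.13%, 15.7 ± 9.64% and 9.11 ± 3.36%. Their part in the group differences was not tested.

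Complement was the pathway the study treated. Of a list of 25 of its genes 10 had 0 transcripts in endothelial nuclei, and 57.6% of these nuclei held at least 1 transcript of the list. It took 0.0862% of their transcripts, against 0.666% in other nuclei. The membrane regulators Cd59a and Cd46 had 90 and 99 transcripts, at 64.1 ± 69.2 and 76.3 ± 51.1 CPM. The classical component C4b had 34 transcripts and 22.6 ± 39.5 CPM, against 51.6 in other nuclei and 548 in nuclei of the astrocyte class. WT-veh and WT-PMX wells held 2 of these transcripts each, Arc-veh wells 14 and Arc-PMX wells 16. Among the Arc-veh wells M3 was at 124 CPM and the nearest at 40.4, and between Arc-veh and WT-veh the difference of 18.4 CPM became −0.184 without that well. Between Arc-PMX and WT-PMX the difference was 31.3 CPM (exact permutation p = 0.379, adjusted 0.953). It ranged from 11.7 to 39.0 CPM with any 1 of 23 wells left out.

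The receptors C5ar1, C5ar2 and C3ar1, and C1qa, had 0 transcripts in 804 endothelial nuclei, which together held 1291764 transcripts. Taken as 3 in 804, with nuclei counted as independent, this allows a share of up to 0.373% of nuclei with a detected transcript. At a median of 978 transcripts per nucleus it does not limit the share that express them at levels too low to be detected. C5ar1 was at 13.7 CPM in microglial nuclei. In 270 single cells C5ar1 and C5ar2 also had 0 detected transcripts, while C3ar1 had 6, C1qa 29 and Itgam 35, beside the microglial transcripts described above. None of 24 comparisons of complement genes between groups passed an exact permutation test, and the smallest p was 0.0671 (adjusted 0.953) for Cd46 between Arc-PMX and WT-PMX.

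Endothelial single cells and nuclei were compared to see what the preparations retained. The single cells came from 8 wells and the nuclei from 23, and preparation, CD11b selection and pooling of mice cannot be told apart. edgeR called 34.7% of 826 genes, 19.6% higher and 15.1% lower in single cells. Inpp5d, a phosphatase of immune cells and microglia, was at 449 ± 144 CPM in single cells and 145 ± 85.6 in nuclei, with wells that overlapped and a log2 fold change of 1.94 (SE 0.27, edgeR adjusted p = 4.07e-07).

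Barrier transport was lower in single cells, with 12 of 16 tested genes called lower and 0 higher. Slco1a4 was at 2579 ± 611 CPM in single cells and 4484 ± 660 in nuclei, with no overlap and a difference of −0.63 on the log2 scale (edgeR adjusted p = 0.000194). Slc2a1 was at 343 ± 181 against 891 ± 338 CPM, −1.19 on the log2 scale (edgeR adjusted p = 0.000491), and Slco1c1 at 762 against 1842 CPM, with −1.07 (edgeR adjusted p = 3.49e-06). The median over the list was −0.71 against −0.06 over all genes. Other lists were lower in single cells as well. Of the other endothelial genes 9 of 13 were called lower and 0 higher (median −0.63), and of capillary genes 4 of 7 and 0 (−0.76). Among TGF-β and BMP genes 4 of 5 were called lower and 1 higher (−0.69). Of 10 basement membrane genes 2 were called lower, and of 11 junction genes 0 passed. The rule genes took 1.52% of transcripts in single cells and 1.86% in nuclei. The pericyte gene Rgs5 was at 161 against 942 CPM and Cxcl12 at 284 against 835 CPM.

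Microglial transcripts moved with these differences. Without any microglial transcript 84 single cells and 602 nuclei remained, and a fit over their wells with at least 5 of them, 6 wells of single cells, called 22 of 598 genes. This division was added after seeing the data. Of 14 barrier transport genes 0 then passed, 13 had a negative log2 fold change, and their median was −0.64, against −0.17 over all genes.

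**Figure D5:**
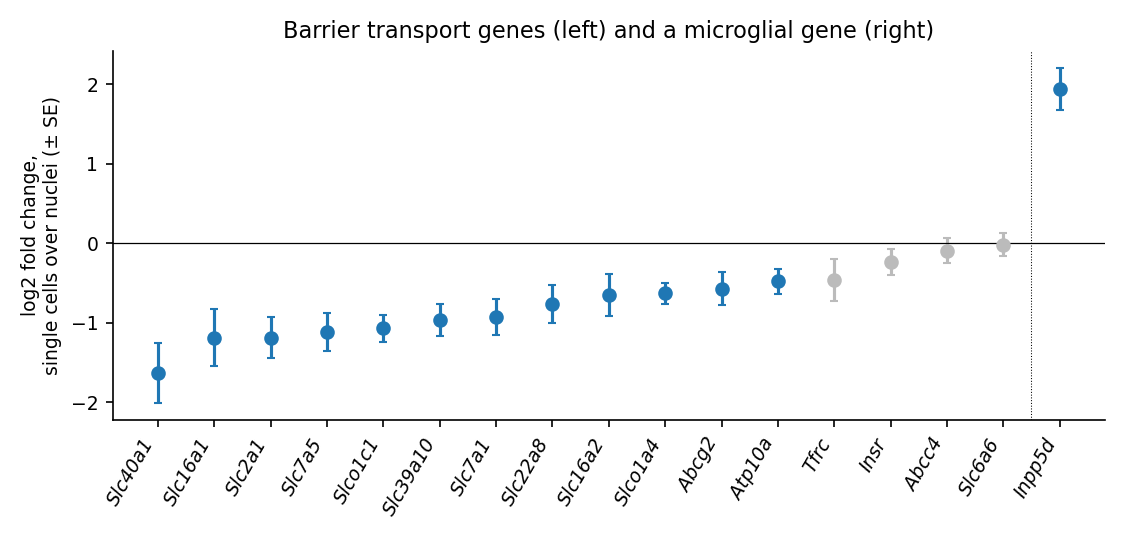
Log2 fold change with its standard error (y axis) between endothelial single cells (8 wells) and nuclei (23 wells) for 16 barrier transport genes and the microglial gene Inpp5d. Blue points passed an adjusted p under 0.05 and grey points did not. Of the transport genes 12 passed as lower in single cells, and Inpp5d was higher.

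In endothelial single cells Arc-PMX against Arc-veh was the only planned contrast with at least 2 wells of 10 members in both groups, and 0 of 300 genes passed in edgeR and 14 had an unadjusted p under 0.05. The smallest p belonged to the kinase Camk1d, with a log2 fold change of −1.93. With wells of at least 5 members, 0 of 209 genes passed in each of 6 contrasts, with the smallest adjusted p of 0.0501 between Arc and WT averaged over treatment.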

How the data were processed

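Transcripts were counted by the authors with the Parse split-pool pipeline, and the deposited matrices held whole-number counts per gene and barcode, not normalized, for each of 7 sublibraries. The submitters' processing notes name bcl2fastq and the mouse build mm10. Wells, and with them groups, came from the first-round barcode in the deposited cell table.

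Members were chosen by the rule given in the report, and the members and gene lists were chosen with earlier results of these data known. Counts were summed per well over members, and wells with at least 10 members were tested with edgeR 4.0.16 in R 4.3.3 (glmQLFit, TMM scaling, filterByExpr, sex as covariate, Benjamini-Hochberg over all genes tested, threshold 0.05). DESeq2 1.42.0 was an alternative. Replicates were wells, with counts per 1000000 transcripts (CPM) of a well's members for values. Shares and complement genes were tested with two-sided permutation tests (scipy 1.17.1), exact, or with 100000 resamples for 12 against 12 wells. Doublets were scored with Scrublet in scanpy 1.11.5 and not removed. The tests were run on simulated data with known changes, where TMM scaling called many unchanged genes between members and other nuclei.

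Genes were named by rule: those called in a contrast, or else the 3 of smallest p, the 10 of largest change per direction against other or mural nuclei among genes of at least 200 CPM, 8 per direction between preparations, and the leading genes of each list. Zone genes and further list genes were chosen after their values were seen. Alternatives were no filter on low counts, a 1.2% threshold, the study's filters, other scalings, a replicate block, and each well or sublibrary left out. Where members are few, values rest on few transcripts, and intervals cover counting error only. No genome sequence was used. Results for some genes are not reported here.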

Additional observations from a re-analysis of the deposited data

Results flagged for a closer look

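Wells were looked at for values far from the rest of their group in 36 groups, and 4 stood apart by Dixon's criterion, where chance gives about 1 in 20 groups. For AY036118 Arc-veh M1 was at 142315 CPM in endothelial nuclei, with the nearest well at 46842 CPM, and WT-PMX F1 was at 10367 CPM, with the nearest well at 3995 CPM. For C4b Arc-veh M3 was at 124 CPM, 10 transcripts, with the nearest well at 40.4 CPM, and WT-veh M3 was at 55.2 CPM, 1 transcript, with the nearest well at 8.49 CPM.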

How the results depend on the processing

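The contrast of Arc-veh and WT-veh in nuclei, with 3 genes called, gave 16 of 16638 with no filter on low counts, 1 at a threshold of 1.2%, 0 of 253 with the study's filters, 0 without sublibrary 2, 3, 5 or 7, 6 without sublibrary 4, 0 without Arc-veh F3 and M1, 0 of 321 under 1% mitochondrial transcripts and 0 to 6 with 1 well left out. Arc against WT averaged over treatment, with 1, gave 2 in DESeq2, 26 with no filter, 3 at 1.2%, 0 with the study's filters, 3 without sublibrary 1, 6 without sublibrary 6, 2 in either mitochondrial class and 1 to 3 with 1 well left out. With no filter Arc-PMX against Arc-veh gave 3 (0 to 1 with 1 well left out), WT-PMX against WT-veh 2, PMX205 averaged over genotype 4 and the difference of its effects 1, against 0 each. In single cells Arc-PMX against Arc-veh gave 2 with no filter and 1 without sublibrary 6, against 0. Single cells against nuclei gave 22 calls without microglial transcripts, against 287, and 254 to 302 with 1 well left out. The cause of these shifts was not tested, beyond the fewer genes and members some of them hold.

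With a replicate block Arc-veh against WT-veh gave 5 calls and single-cell Arc-PMX against Arc-veh 7, and no other count of calls moved by more than 1.5 times. Whether the numbers pair the wells was looked at in nuclei through deviations from the means of group and sex. Over 33 same-numbered pairs these correlated with a median r of 0.0225, from −0.123 to 0.180, and over 66 other pairs with −0.00940. An r above 0.1 was found in 4 of the 33 and 4 of the 66 pairs. Sums over few nuclei are noisy, so a pairing is not excluded.

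App in Arc-veh against WT-veh had a log2 fold change of 0.73 (adjusted p = 0.0904) at 1.2%, 0.21 (0.994) with the study's filters and 0.78 (0.176) without Arc-veh F3 and M1. Averaged over treatment it kept its call with any 1 well left out (0.65 to 0.72) but was 0.20 (0.979) with the study's filters. AY036118 ranged from 1.59 to 3.83 and Plcl1 from −3.35 to −2.40 with 1 well left out. Among the other settings the call of AY036118 was lost in 8 of 18 and that of Plcl1 in 6 of 16, with adjusted p up to 0.683 and 0.349.

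Shares of nuclei, with 1 well left out, differed by 0.473 to 0.922 points between Arc-veh and WT-veh, −0.0285 (without WT-veh F3) to 0.420 between WT-PMX and WT-veh and 0.367 to 0.571 between all Arc and all WT. Single-cell shares reversed over the few barcodes without microglial transcripts: Arc-veh minus WT-veh was 15.7 points, Arc-PMX minus Arc-veh −6.06 and all Arc minus all WT 8.26. Over all barcodes Arc-veh minus WT-veh was −1.09 points and ranged from −2.38 to 0.0279 with 1 well left out. C4b in Arc-veh minus WT-veh was −36.8 CPM over members without astrocyte, OPC and microglial transcripts, and −0.184 to 29.0 with 1 well left out. In Arc-PMX minus Arc-veh it was −12.6 to 25.6, −0.891 without Arc-PMX F1. Settings added after seeing the data were the mitochondrial classes, the 2 Arc-veh wells, members without microglial transcripts and mural nuclei with few endothelial transcripts. Leaving out single-cell WT-veh F2, with 7 members, changed no count.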
